A study of Homo sapiens with 20 samples.

Results

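The insulin-like growth factor (IGF) axis was examined in RNA-seq libraries of U2-OS cells, a human osteosarcoma line. The genes were the 7 genes named as IGF-binding proteins, IGFBP1 to IGFBP7, the type 1 receptor IGF1R, the ligand IGF2 and its scavenger receptor IGF2R. They were picked by gene symbol, and all 10 were among the 20314 genes with deposited read counts. Of these, 6 had enough counts to be tested (IGF2, IGF1R, IGF2R, IGFBP5, IGFBP6 and IGFBP7), and IGFBP1, IGFBP2, IGFBP3 and IGFBP4 did not pass the filter on low counts.

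The 20 libraries fell into 4 groups of 5. One group was untreated (UT), and 2 groups received 20 Gy of ionizing irradiation (IR) and were harvested 1.5 h later (90 minutes on the labels) or 7 days later. The fourth group was not irradiated and carried an shRNA against NFKBIA, the gene of the NF-κB inhibitor IκBα. According to the methods the shRNA was doxycycline-inducible, in cells selected with puromycin as clones and induced for days before harvest. The methods describe controls that carried a scrambled shRNA, but no library bears such a label, so that effects of vector, clonal selection and doxycycline cannot be told apart from those of the loss of NFKBIA. All groups were grown in the same serum-containing medium. Serum brings IGFs and IGF-binding proteins of its own, which RNA-seq does not see.

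IGFs act through IGF1R, a receptor tyrosine kinase that signals through IRS adaptors, PI3K and AKT to growth and survival. IGF2R carries IGF2 to lysosomes and also sorts lysosomal enzymes. Outside the cell most IGF is held by IGFBPs, which prolong its life and limit its access to IGF1R until proteases such as PAPP-A cleave them. In bone, IGF2 and IGFBP5 are among the abundant matrix-bound members of the axis, and several IGFBPs are known as secreted products of senescent cells.

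The promoters of both IGFBPs that changed at 7 days post-IR, in opposite directions, are given here because the study concerns NF-κB and because the matches in the 2 sequences differ in part. The motifs searched on both strands were TATAAA, the FOXO element TGTTTAC, the NF-κB consensus and the p53 half-site. Capitals mark their matches in the 250 bases before the transcription start, written 5′ to 3′ on the strand of the gene (RefSeq, GRCh38.p14). The IGFBP5 window is chr2:216695550-216695799 on the minus strand and the IGFBP6 window is chr12:53097417-53097666 on the plus strand.
IGFBP5: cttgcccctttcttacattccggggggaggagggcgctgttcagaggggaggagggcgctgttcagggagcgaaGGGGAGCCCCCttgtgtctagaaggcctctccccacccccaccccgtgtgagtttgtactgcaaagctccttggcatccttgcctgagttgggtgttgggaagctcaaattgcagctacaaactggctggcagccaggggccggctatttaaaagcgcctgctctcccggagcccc
IGFBP6: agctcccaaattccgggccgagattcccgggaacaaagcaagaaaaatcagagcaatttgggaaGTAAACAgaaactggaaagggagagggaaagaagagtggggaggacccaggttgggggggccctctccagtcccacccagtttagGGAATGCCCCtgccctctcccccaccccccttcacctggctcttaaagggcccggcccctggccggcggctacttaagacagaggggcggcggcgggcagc
In IGFBP5 the capitals mark 2 overlapping matches to the NF-κB consensus, GGGGAGCCCC from position -176 and GGGAGCCCCC from position -175, both of which match on either strand. In IGFBP6 they mark the FOXO element on the other strand (GTAAACA, from -186) and 1 match to the NF-κB consensus on the other strand (GGAATGCCCC, from -101). Among 35116 RefSeq promoter windows of 300 bases, 11.3% held the NF-κB consensus, 3.42% TGTTTAC, 11.5% TATAAA and 6.63% the p53 half-site. The table also gave windows for IGFBP2, IGFBP3, IGFBP4, IGF1R and IGF2R, so that 7 of the 10 genes were matched. For IGFBP2, which has several windows, 1 held the NF-κB consensus (GGGAACCCCC, from -176) and another the p53 half-site, and the IGFBP4 window held TATAAA. No motif was found in the windows of IGF1R, IGF2R and IGFBP3. A match of letters is a description of the sequence and not a sign that a factor binds there.

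Between 22535659 and 40390961 reads per library fell on genes. Levels are given as CPM, read counts relative to library size after scaling by edgeR's TMM method, and levels of different genes are compared only per kilobase (kb) of the gene length in the deposited table. Genes counted as called, or as risen or fallen, where the fitted change exceeded 0.5 log2 units in either direction and the adjusted p was below 0.05 (quasi-likelihood test of edgeR, Benjamini-Hochberg over the 14992 genes tested). Errors of levels are SD and errors of log2 fold changes are SE, with n = 5 libraries a group. NFKBIA measured 31.3 ± 7.25 CPM in untreated libraries and 12.2 ± 0.667 in the knockdown, with no overlap (log2 fold change -1.36 ± 0.11). In the irradiated groups NFKBIA measured 82.05 ± 5.27 CPM at 1.5 h and 30.75 ± 1.59 at 7 days. Its log2 fold change from untreated cells was -0.02 ± 0.10 at 7 days, so that it was not called lower there. CDKN1A, the p21 gene used as a senescence marker, rose from 225.5 ± 17.3 CPM to 689.9 ± 24.3 at 1.5 h and 816.5 ± 13.3 at 7 days, and so does not mark the later group alone. Of 9 osteoblast-lineage markers 7 were tested, and SP7 and IBSP were at or near 0 in every group. All 3 mesenchymal and all 4 epithelial markers were tested, but only PTPRC of the blood markers and VWF of the endothelial ones, at 1.05 ± 0.331 and 1.12 ± 0.468 CPM in untreated cells. At 7 days 2 osteoblast-lineage markers were called higher and 1 lower, 1 mesenchymal marker higher and 3 epithelial ones lower. In the knockdown 2 osteoblast-lineage, 1 mesenchymal, 2 epithelial and 1 blood marker were called lower. Of all genes 31.1% were called at 7 days and 12.7% in the knockdown. The part of these markers in the results was not tested. Untreated library 5 stood apart from its group, with the lowest depth of all libraries and an RMS log2 difference of 0.561 to the mean of the others, against 0.386 for untreated library 4 and 0.156 to 0.287 for the remaining libraries. It touches the comparisons with untreated cells, IGF2 above all. Sequencing lanes were nearly nested in groups: untreated libraries 1 to 4 shared lane 2, and untreated library 5 ran in lane 3 with 3 libraries at 1.5 h. With a term for lane, or within lane 3, every fold change from untreated cells therefore rests on untreated library 5 alone. Such a fit cannot tell an effect of lane from the deviation of that library.

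At 1.5 h post-IR 0 of the 6 tested genes were called by edgeR's quasi-likelihood test and 0 by DESeq2, which gave no p for IGF2, and 3 had an unadjusted p under 0.05. Of all genes tested 3.66% were called at 1.5 h, 2.08% as higher and 1.57% as lower, and in 12.3% the groups did not overlap. At 7 days 3 of the 6 were called, IGFBP6 and IGF2R as higher and IGFBP5 as lower, against 31.1% of all genes (16.7% higher and 14.4% lower). The groups did not overlap for 4 of the 6, against 44.8% of all genes. In the knockdown 3 were called, IGF2 as higher and IGFBP5 and IGFBP7 as lower, against 12.7% of all genes (5.18% higher and 7.53% lower). Here the groups did not overlap for 2 of the 6, IGFBP5 and IGFBP7, against 24.1% of all genes. Between both irradiated groups IGFBP6 was higher and IGFBP5 lower at 7 days, where 29.3% of all genes were called (16.8% higher and 12.6% lower). The groups did not overlap for 5 of the 6, IGFBP7 being the exception, and for 61.8% of all genes. Between 7 days and the knockdown, IGFBP6, IGFBP7 and IGF1R were higher and IGF2 was lower at 7 days, where 25.7% of all genes were called (15.8% higher and 9.89% lower). Again the groups did not overlap for 5 of the 6, all but IGFBP5, and for 60.7% of all genes.

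The median log2 fold change of the 6 genes was -0.18 at 1.5 h, 0.22 at 7 days and -0.02 in the knockdown, where all genes had medians of -0.0258, 0.0122 and -0.00804. The comparisons with untreated cells share the untreated libraries and are not independent of each other. Since RNA of whole cultures was measured, fewer cells that express a gene and less RNA per cell cannot be told apart.

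**Figure D1:**
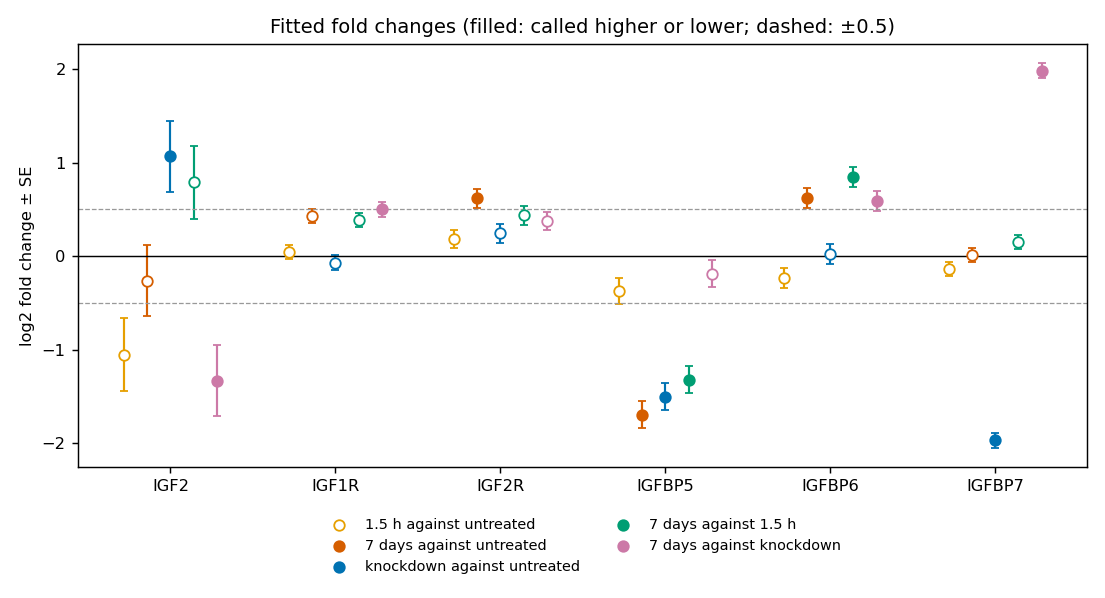
Fitted log2 fold change ± SE (vertical axis) of the 6 tested genes (horizontal axis) in 5 comparisons, shown by colour; filled points were called higher or lower and dashed lines mark ±0.5. IGFBP5 lies at -1.69 at 7 days and -1.51 in the knockdown, IGFBP7 at -1.97 in the knockdown alone among the comparisons with untreated cells, and the errors of IGF2 are the widest.

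IGF2, the fetal growth factor that is the ligand of both receptors, was highest in the knockdown except for 1 untreated library. It measured 19.03, 21.8, 21.7, 18.6 and 125 CPM in untreated libraries 1 to 5. It measured 17.2, 19.6, 20.95, 20.8 and 19.1 CPM in the 5 libraries at 1.5 h, and 34.3, 32.03, 36.7, 34.9 and 31.1 CPM in those at 7 days. In the knockdown libraries it measured 76.7, 84.7, 80.1, 90.3 and 93.7 CPM. The groups at 1.5 h, at 7 days and in the knockdown did not overlap, and 4 of the 5 untreated libraries lay within or just above the range at 1.5 h, but untreated library 5 lay above every knockdown library. The untreated mean was therefore 41.3 ± 47.0 CPM with library 5 and 20.3 ± 1.70 without it.

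With all libraries the knockdown was called higher than untreated cells for IGF2, by a log2 fold change of 1.07 ± 0.38 (adjusted p = 0.0297 in edgeR's quasi-likelihood test, exact permutation p = 0.0476). That call was lost when any one of untreated libraries 1, 2, 3 or 4 (0.86 to 0.91) or of knockdown libraries 4 or 5 (1.04 and 1.03) was left out. Without untreated library 5 the log2 fold change was 2.05 (adjusted p = 4.02e-15 in the same test). At 7 days the log2 fold change from untreated cells was -0.26 ± 0.38 with all libraries and 0.72 without untreated library 5 (adjusted p = 1.33e-08), so that 1 library set its direction. At 1.5 h it was -1.05 ± 0.39 with all libraries, which missed the threshold (adjusted p = 0.0593), and -0.06 without untreated library 5. It was called lower at 1.5 h when any one of untreated libraries 1, 2, 3 or 4 was left out (-1.21 to -1.25), where library 5 weighed more.

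With the sequencing lane as a factor IGF2 was lower than in untreated cells in all comparisons (-2.70 at 1.5 h, -1.97 at 7 days and -0.81 in the knockdown), a fit in which untreated library 5 is the only untreated library in a lane with another group. In comparisons of the other groups untreated library 5 enters the fold change of no group, but in the fit of all groups it still enters the estimate of spread. IGF2 was 0.79 ± 0.39 higher at 7 days than at 1.5 h on the log2 scale, which missed the threshold in that fit (adjusted p = 0.085). It was called higher with only both groups compared in the fit (0.78 ± 0.06, adjusted p = 1.66e-09), with a term for lane (0.73, adjusted p = 1.77e-05) and within lane 4 (0.72, adjusted p = 5.96e-07). It was 1.33 ± 0.38 lower at 7 days than in the knockdown, or -1.33 as a log2 fold change (adjusted p = 0.00531), and -1.17 within lane 5, which holds 1 knockdown library.

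**Figure D2:**
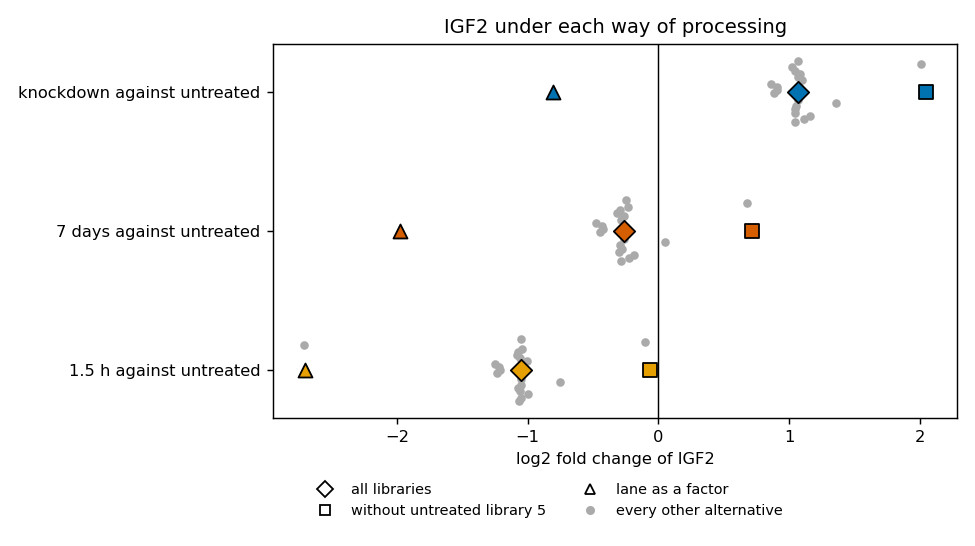
Log2 fold change of IGF2 (horizontal axis) in the 3 comparisons with untreated cells (vertical axis) with all libraries (diamond), without untreated library 5 (square), with sequencing lane as a factor (triangle) and under every other alternative (grey). Without untreated library 5 the values move from -1.05 to -0.06, from -0.26 to 0.72 and from 1.07 to 2.05.

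On GRCh38 (GENCODE 29) IGF2 lies on chr11:2129112-2149603, minus strand, inside a stretch shared with the readthrough gene INS-IGF2 and with MIR483 on the same strand and IGF2-AS on the other. Reads of IGF2 and INS-IGF2 cannot be fully told apart. The methods describe the libraries as stranded, but whether the counting used strand is not given in the sources used here. INS-IGF2 measured 1.75, 3.16, 2.55, 1.09 and 16.6 CPM in untreated libraries 1 to 5, so that the same library was high. It measured 2.42 ± 0.394 CPM at 1.5 h, 4.49 ± 0.303 at 7 days and 10.3 ± 0.799 in the knockdown. Per length, IGF2 stood at 2.61 to 2.85 times INS-IGF2 in the mean of each treated group and at 3.52 ± 1.43 times in untreated cells. With the counts of both genes summed, the log2 fold change in the knockdown was 1.07, close to that of IGF2 alone. IGF1, the other ligand, measured 0.0341 ± 0.0439 CPM or less in the mean of every group and was not tested.

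IGF1R, the signalling receptor, was higher at 7 days than in any library of the other groups, by less than the fold threshold. It measured 134.8, 150.8, 156.4, 113 and 177.6 CPM in the untreated libraries. It measured 146.4, 153.9, 144.1, 154.2 and 155.4 CPM at 1.5 h and 199.3, 197.1, 187 and then 202.4 and 200.8 CPM at 7 days. In the knockdown it measured 139.5, 143.3, 140, 141.5 and 133.3 CPM. The 7 days libraries did not overlap those of any other group, while the untreated libraries spanned those at 1.5 h and in the knockdown. The log2 fold change at 7 days was 0.43 ± 0.08 (adjusted p = 5.76e-05 in edgeR's quasi-likelihood test, exact permutation p = 0.00794), below the threshold of 0.5, and so IGF1R was not called. Against the knockdown it was 0.50 ± 0.08 and just over the threshold (adjusted p = 1.16e-05), and the call was lost in 19 of 22 alternatives, among them leaving out any one of the 5 knockdown libraries or of libraries 1, 2, 4 and 5 at 7 days (0.47 to 0.49). At 1.5 h and in the knockdown the log2 fold changes from untreated cells were 0.04 ± 0.08 and -0.07 ± 0.08.

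IGF2R, the mannose 6-phosphate receptor that clears IGF2, rose at 7 days. It measured 298, 381, 362, 218 and 301 CPM in the untreated libraries and 317, 363, 374, 356 and 359.6 CPM at 1.5 h. At 7 days it measured 493, 439.7, 495, 480.3 and 486 CPM, and in the knockdown 349, 367, 369, 394 and 368 CPM. All 7 days libraries lay above all others, and untreated library 4 was the lowest of all. The log2 fold change at 7 days was 0.62 ± 0.10 (adjusted p = 1.46e-05 in edgeR's quasi-likelihood test, exact permutation p = 0.00794). Without untreated library 4 it was 0.49 and fell just short of the fold threshold (adjusted p = 2.72e-06). With a term for lane the call was also lost, at 0.60 (adjusted p = 0.0533). IGF2R was also 0.44 ± 0.10 higher at 7 days than at 1.5 h and 0.38 ± 0.10 higher than in the knockdown, both under the threshold of 0.5. In the knockdown it measured 0.24 ± 0.10 above untreated cells (adjusted p = 0.0555) and was not called.

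Per length, IGF2R mRNA stood above IGF1R mRNA in every group, at 2.9 ± 0.444 times in untreated cells, 3.18 ± 0.212 at 1.5 h, 3.3 ± 0.206 at 7 days and 3.59 ± 0.168 in the knockdown. The ranges of neighbouring groups in this order overlapped. INSR, the insulin receptor that forms hybrids with IGF1R, measured 14.8 ± 2.09 CPM in untreated cells and 11.9 ± 0.617 at 7 days (log2 fold change -0.31 ± 0.08, not called). Per length, IGF1R stood at 7.67 ± 0.785 times INSR in untreated cells and at 12.8 ± 0.845 times at 7 days, and the lowest ratio at 7 days (11.6) was above the highest in untreated cells (8.52). IGF1R lies on chr15:98648539-98964530 and IGF2R on chr6:159969099-160113507, both on the plus strand (GRCh38, GENCODE 29). IGF2R overlaps the antisense gene AIRN.

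**Figure D3:**
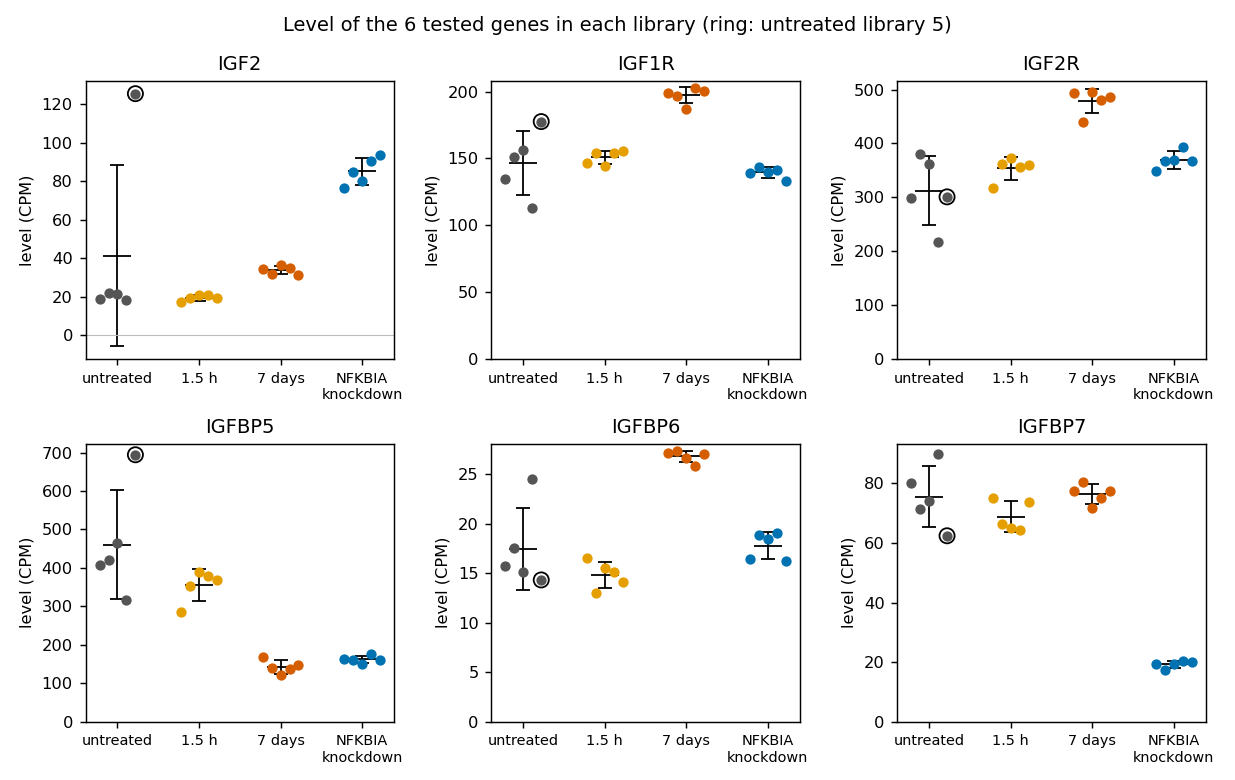
Level in CPM (vertical axis, from 0 or below) of the 6 tested genes in each library, by group (horizontal axis); bars are the mean ± SD of 5 libraries and the ring marks untreated library 5. IGFBP5 is low at 7 days and in the knockdown, IGFBP7 in the knockdown only, IGFBP6, IGF1R and IGF2R are high at 7 days, and the ringed library stands apart for IGF2.

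IGFBP5, the most conserved binding protein and one that is held in bone matrix, was the 1 member that fell at 7 days, and it also fell in the knockdown. It measured 407, 420.3, 464, 317 and 694 CPM in the untreated libraries and 286, 354, 391, 379.6 and 367.5 CPM at 1.5 h. It measured 168, 139, 120.3, 137 and 147 CPM at 7 days and 162, 161.5, 151, 176 and 159.7 CPM in the knockdown. Every library at 7 days or in the knockdown lay below every untreated library and every library at 1.5 h, and the groups at 7 days and in the knockdown overlapped. The fall was 3.24-fold at 7 days (log2 fold change -1.69 ± 0.15, adjusted p = 2.03e-09 in edgeR's quasi-likelihood test). It was 2.84-fold in the knockdown (-1.51 ± 0.14, adjusted p = 5.82e-08), and both had the smallest exact permutation p that 5 libraries against 5 allow, 0.00794. Between 7 days and the knockdown the log2 fold change was -0.19 ± 0.14, with an interval of 2 SE from -0.473 to 0.096.

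At 1.5 h IGFBP5 measured -0.37 ± 0.14 on the log2 scale against untreated cells and was not called (adjusted p = 0.0652). Without untreated library 5 it was -0.18 (adjusted p = 0.158). With a term for lane, and within lane 3, the value was -1.02, but both rest on untreated library 5, the only untreated library in a lane with another group. The direct comparison of 7 days with 1.5 h gave -1.32 ± 0.14 (adjusted p = 8.22e-08), and the untreated libraries have no direct part in it. The calls of IGFBP5 at 7 days, in the knockdown and between 7 days and 1.5 h were kept in all 22 alternatives tried for each. IGFBP5 lies on chr2:216672105-216695525, minus strand (GRCh38, GENCODE 29), tail to tail with IGFBP2 at a distance of 7668 bases and with 0 protein-coding genes between them.

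IGFBP6, which prefers IGF2 over IGF1 as its ligand, rose at 7 days against each of the other groups. It measured 15.7, 17.5, 15.1, 24.6 and 14.3 CPM in the untreated libraries and 16.5, 13.03, 15.5, 15.1 and 14.1 CPM at 1.5 h. At 7 days it measured 27.1, 27.3, 26.6, 25.9 and 27.1 CPM, the narrowest spread of the groups, and in the knockdown 16.4, 18.9, 18.4, 19.02 and 16.2 CPM. The 7 days libraries lay above all others, with untreated library 4 the nearest. The log2 fold change at 7 days was 0.62 ± 0.11 against untreated cells (adjusted p = 3.48e-05 in edgeR's quasi-likelihood test), 0.85 ± 0.11 against 1.5 h (adjusted p = 6.05e-07) and 0.59 ± 0.11 against the knockdown (adjusted p = 7.05e-05). The groups did not overlap in any of the 3. In the knockdown itself it was 0.03 ± 0.11 against untreated cells (adjusted p = 0.865). IGFBP6 lies on chr12:53097436-53102345, plus strand (GRCh38, GENCODE 29).

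IGFBP7, a low-affinity IGF binder that also binds insulin and is known as a secreted factor of senescent cells, fell in the knockdown, and its 7 days libraries lay above the knockdown libraries by a direct test. It measured 80.2, 71.3, 74.2, 89.7 and 62.4 CPM in the untreated libraries and 75.1, 66.2, 64.9, 64.2 and 73.9 CPM at 1.5 h. It measured 77.5, 80.4, 71.7, 75.1 and 77.6 CPM at 7 days, but 19.2, 17.4, 19.4, 20.4 and 20.2 CPM in the knockdown. The knockdown libraries lay far below all others, which overlapped among themselves. The fall in the knockdown was 3.91-fold (log2 fold change -1.97 ± 0.08, adjusted p = 1.59e-13 in edgeR's quasi-likelihood test, exact permutation p = 0.00794). At 7 days the log2 fold change was 0.02 ± 0.07, with an interval of 2 SE from -0.133 to 0.166. The direct difference between 7 days and the knockdown was 1.98 ± 0.08 (adjusted p = 1.34e-14). Both calls were kept in all 22 alternatives tried for each. IGFBP7 lies on chr4:57030773-57110385, minus strand (GRCh38, GENCODE 29), and overlaps POLR2B and IGFBP7-AS1 on the other strand, whose reads may enter its count if strand was not used.

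IGFBP1, IGFBP2, IGFBP3 and IGFBP4 were at 9 counts or fewer in every library. IGFBP3, the main carrier of IGFs in serum, had 1, 0, 1, 1 and 0 counts in the untreated libraries and 0 in all 5 at 1.5 h. At 7 days it had 1, 0, 0, 1 and 9 counts, so that 1 library held 9 of 11, and in the knockdown it had 0, 0, 1, 1 and 0. IGFBP2, another IGF2-preferring binder, had 1, 0, 2, 1 and 0 counts in the untreated libraries and 8, 2, 4, 7 and 3 at 7 days, or 24 counts in sum at 7 days against 4 in each of the other groups. IGFBP1, the liver-type binder that insulin represses, had 2 counts in sum in untreated cells, 10 at 1.5 h, 15 at 7 days and 4 in the knockdown. IGFBP4, the main substrate of PAPP-A, had 6, 13, 10 and 2 counts in the same order. In a fit without the filter on low counts, IGFBP1 and IGFBP2 passed the thresholds at 7 days against untreated cells (log2 fold changes of 2.55 and 2.39, adjusted p = 0.015 and 0.00309 in edgeR's quasi-likelihood test), and these rest on the counts just given. IGFBP1 and IGFBP3 also lie tail to tail, on chromosome 7 at a distance of 18576 bases (GRCh38, GENCODE 29).

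Per length the order of the binding proteins differed between groups. IGFBP5 led in untreated cells with 71.5 ± 21.9 CPM per kb, followed by IGFBP7 with 39.1 ± 5.27 and IGFBP6 with 13.6 ± 3.24. At 7 days IGFBP7 led with 39.6 ± 1.67 CPM per kb, and IGFBP5 (22.1 ± 2.68) and IGFBP6 (20.9 ± 0.447) did not differ beyond their spread. In the knockdown the order was IGFBP5 (25.2 ± 1.39), IGFBP6 (13.9 ± 1.07) and IGFBP7 (10.0 ± 0.606). As a share of all IGFBP transcripts per length, IGFBP5 made up 56.7 ± 10.2% in untreated cells, 53.7 ± 4.45% at 1.5 h, 26.6 ± 2.03% at 7 days and 51.2 ± 1.34% in the knockdown. IGFBP6 rose in share from 11.2 ± 3.47% in untreated cells to 25.4 ± 1.07% at 7 days and 28.3 ± 1.77% in the knockdown, while its level in the knockdown measured 0.03 ± 0.11 above untreated cells on the log2 scale. The sum of the 7 binding proteins was 124 ± 15.4 CPM per kb in untreated cells, 103 ± 4.49 at 1.5 h, 82.7 ± 4.21 at 7 days and 49.1 ± 2.10 in the knockdown. The 4 ranges did not overlap, with untreated cells at 115 to 151, the libraries at 1.5 h at 96.3 to 106, those at 7 days at 76.7 to 87.5 and the knockdown at 47.9 to 52.8. The sum was not tested. Of all genes, 12.3% did not overlap with untreated cells at 1.5 h, 44.8% at 7 days and 24.1% in the knockdown. At 1.5 h IGFBP5, IGFBP6 and IGFBP7 each overlapped with untreated cells and were not called.

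**Figure D4:**
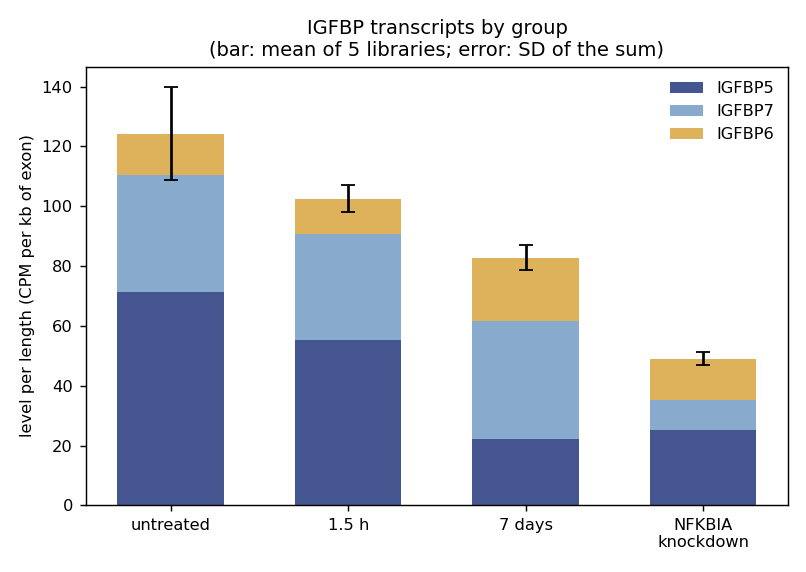
Mean level per length of IGFBP5, IGFBP7 and IGFBP6 (stacked bars, vertical axis in CPM per kb of gene length) in the 4 groups (horizontal axis); the error bar is the SD of the sum over 5 libraries. The sum falls from 124 in untreated cells to 82.7 at 7 days and 49.1 in the knockdown, and IGFBP7 is the largest part at 7 days only.

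Genes around these members were taken from 5 lists. Of 9 partners of the axis, 4 were tested and IGF1, IRS2 and IGFALS were among those at or near 0. IRS1, the adaptor of IGF1R, was called lower at 1.5 h (log2 fold change -0.63 ± 0.12, adjusted p = 0.000811 in edgeR's quasi-likelihood test). It was also called lower in the knockdown (-0.51 ± 0.12, adjusted p = 0.00215). Its untreated libraries measured 121, 132, 137, 89.0 and 192 CPM, and without untreated library 5 both values fell under the threshold (-0.47 and -0.36). The knockdown call of IRS1 was also lost without untreated library 3 (-0.50, just under the threshold) and without knockdown library 1 (-0.48). IGFBPL1, an IGFBP-like protein, was called lower in the knockdown (-0.73 ± 0.12). At 7 days, where 31.1% of all genes were called, 0 of the 4 were called by edgeR's quasi-likelihood test and 0 by DESeq2. All 4 had an unadjusted p under 0.05 in the edgeR test.

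Of 12 proteases that cut IGFBPs and inhibitors of these proteases, 11 were tested. At 7 days 6 were called higher and none lower (54.5% called, against 31.1% of all genes), with a median log2 fold change of 0.69 where all genes had 0.0122. PAPPA, whose product cleaves IGFBP4 and IGFBP5, measured 8.25, 8.77, 9.53, 5.37 and 13.8 CPM in the untreated libraries and 24.8, 20.1, 22.4, 23.6 and 23.5 at 7 days. These groups did not overlap, and its log2 fold change was 1.34 ± 0.16 (adjusted p = 2.17e-07 in edgeR's quasi-likelihood test). With a term for lane, which leaves untreated library 5 (13.8 CPM) as the untreated side, it was 0.67 and no longer called. PAPPA2, which cleaves IGFBP3 and IGFBP5, rose at 7 days by 1.29 ± 0.32. Its untreated library 2 stood apart with 62.4 CPM against 14.1 to 21.7 in the other 4. The libraries at 7 days measured 58.8 to 70.1 CPM, so that these groups overlapped. Library 3 at 1.5 h was also high, at 49.55 CPM against 17.1 to 24.05 in the other 4. ADAM28 (1.89 ± 0.13), ADAM12 (1.37 ± 0.13), HTRA1 (log2 fold change 1.13) and CTSD (0.69) were the other genes called higher at 7 days. At 1.5 h, where 3.66% of all genes were called, 0 of the 11 were called by edgeR's quasi-likelihood test and 0 by DESeq2. Of the 11, 2 had an unadjusted p under 0.05 in the edgeR test.

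In the knockdown 3 of the 11 were called higher and 2 lower (45.5% called, against 12.7% of all genes). ADAM28 rose by 1.54 ± 0.13 and PAPPA2 by 0.94 ± 0.32 on the log2 scale. The PAPPA2 call was lost when untreated library 1, 3 or 4 (0.78, 0.87 and 0.77) or knockdown library 5 (0.90) was left out. Over all libraries left out in turn, its value ranged from 0.77 to 1.53. ADAM9 was called at 0.51 and fell under the threshold without untreated library 4 or 5 or knockdown library 5 (0.47, 0.45 and 0.49), with RLE factors (0.4957), in DESeq2 (0.4946), with no filter (0.48) and with at least 10 counts in every library (0.49). MMP7 fell by 1.94 ± 0.41 and STC1, an inhibitor of PAPP-A, by 1.40 ± 0.41, both from levels below 0.5 CPM in untreated cells. With a term for lane the calls of MMP7 (-1.72, adjusted p = 0.373) and PAPPA2 (1.61, adjusted p = 0.246) were lost. PAPPA measured -0.16 ± 0.16 in the knockdown (adjusted p = 0.455).

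**Figure D5:**
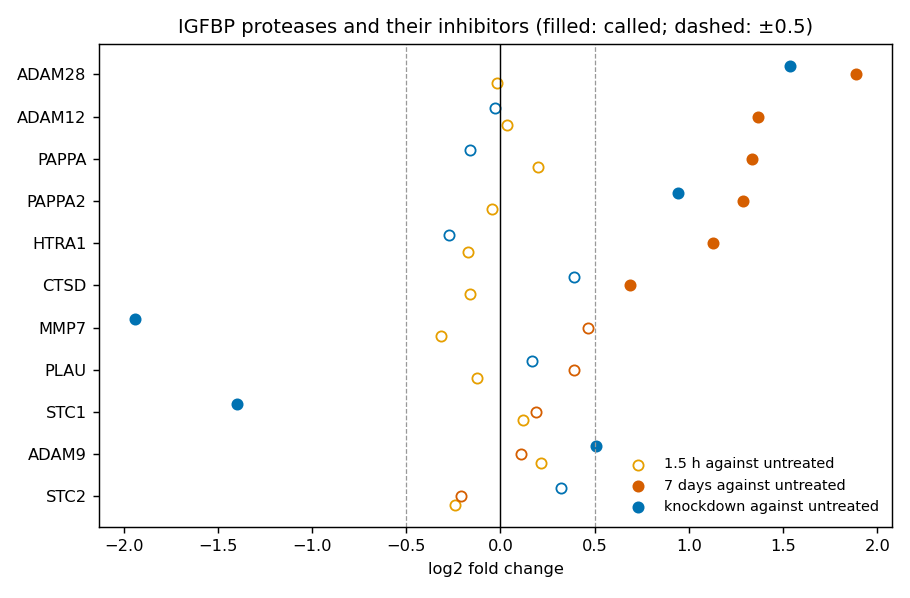
Log2 fold change from untreated cells (horizontal axis) of the 11 tested IGFBP proteases and protease inhibitors (vertical axis, ordered by their value at 7 days) at 1.5 h, at 7 days and in the knockdown; filled points were called and dashed lines mark ±0.5. The 6 genes called at 7 days lie between 0.69 and 1.89, and MMP7 and STC1 are low in the knockdown only.

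All 35 genes listed for signalling below the receptor were tested. At 7 days 2 were called higher and 6 lower (22.9%), at 1.5 h 2 lower (5.71%) and in the knockdown 1 lower (2.86%), where 31.1%, 3.66% and 12.7% of all genes were called. Single libraries decided several calls at 7 days. Without untreated library 4 the calls of FOXO1 (0.44) and SOCS2 (-0.46) were lost, as they were with a term for lane (0.20 and, with the sign changed, 0.022), and without untreated library 5 those of GSK3A (-0.22) and GAB1 (-0.38). SOCS2 was also lost without library 2 or 4 at 7 days (-0.50 and -0.48). With only the groups compared it was lost as well (-0.60, adjusted p = 0.0593 in edgeR's quasi-likelihood test). INPP5D, the phosphatase SHIP1 that acts on the product of PI3K, rose by 1.83 ± 0.08 at 7 days. SOCS1 and SOCS3, feedback inhibitors of cytokine and insulin receptors, fell at 7 days by 2.41 ± 0.19 and 1.37 ± 0.08, as did the adaptor GRB14 by 0.68 ± 0.14, a call lost with a term for lane (-0.51, adjusted p = 0.259). SOCS3 was called lower also at 1.5 h (-0.58 ± 0.08), a call lost with a term for lane (-0.14) and within lane 3 (-0.15). SOCS1 was called there too (-0.56 ± 0.16), and without untreated library 4 or library 3 at 1.5 h it was not (-0.42 and -0.45). With only the groups compared its call was lost too (-0.54, adjusted p = 0.119 in edgeR's quasi-likelihood test). The same held with a term for lane (-0.53), within lane 3 (-0.54) and without untreated libraries 4 and 5 together (-0.36). The kinases AKT1, AKT2 and MTOR were not called in the comparisons with untreated cells, and at 7 days their log2 fold changes were -0.25, -0.43 and -0.10. PIK3R3, a regulatory subunit of PI3K, was the 1 gene called lower in the knockdown (-0.55 ± 0.06).

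Of the 8 IGFBP-related proteins, which share the IGFBP domain, 6 were tested. At 7 days 2 were called higher (33.3%, near the 31.1% of all genes): ESM1, secreted mainly by endothelium, by 3.73 ± 0.08 and CCN3 by 1.30 ± 0.10. In the knockdown 4 were called (66.7%, against 12.7% of all genes). CCN3 was called higher (0.57 ± 0.10), and CCN4, ESM1 and CCN2 were called lower, with log2 fold changes of -2.003 ± 0.22, -0.90 ± 0.08 and -0.74 ± 0.08. With a term for lane CCN3 was at -0.057, with the sign changed and no call (adjusted p = 0.822), and the call of CCN2 was lost (-0.45, adjusted p = 0.146). Of the endothelial markers, PECAM1 was not among the deposited genes by its symbol, and CDH5 measured 0.0909 ± 0.101 CPM or less in the mean of each group. VWF measured 1.12 ± 0.468 CPM in untreated cells, 1.62 ± 0.288 at 7 days and 0.851 ± 0.258 in the knockdown, and was called higher at 7 days than in the knockdown (0.91), as was ESM1 (4.63). Its part in the ESM1 result was not tested. At 1.5 h, where 3.66% of all genes were called, 0 of the 6 were called by edgeR's quasi-likelihood test and 0 by DESeq2. Of the 6, 4 had an unadjusted p under 0.05 in the edgeR test. Of 8 regulators and neighbours of IGF2 mRNA, 6 were in the table and 5 were tested. At 1.5 h 0 of these 5 were called by edgeR's quasi-likelihood test and 0 by DESeq2, against 3.66% of all genes. An unadjusted p under 0.05 in the edgeR test was reached by 2 of them. IGF2BP3, which binds IGF2 mRNA, rose by 1.97 ± 0.13 at 7 days and by 0.71 ± 0.14 in the knockdown, where the call was lost with a term for lane (0.63, adjusted p = 0.258). IGF2BP1 of the same family fell by 1.40 ± 0.13 at 7 days. INS-IGF2, also in this list, was called higher in the knockdown (1.16 ± 0.43, adjusted p = 0.0365 in edgeR's quasi-likelihood test). That call was lost without any 1 of untreated libraries 1 to 4 or of the 5 knockdown libraries (0.89 to 1.19). Without untreated library 5 the value was 2.23.

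The genes most like each member were taken by the RMS difference of log2 CPM over the 20 libraries, centred on the mean of each gene. Nearest to IGFBP5 were RNF150 (0.178), L1CAM (0.187) and LRRN1 (0.212), against a median of 0.778 over all genes tested. Nearest to IGFBP6 were SSR4 (0.115), DPP7 (0.116) and ARSA (0.124), and to IGFBP7 KRT17 (0.199), PDGFC (0.234) and IL7R (0.237), with medians over all genes of 0.426 and 0.882. The gene closest to IGF1R was SHC1, an adaptor of the same receptor that is also in the signalling list (0.0598), followed by TGFBRAP1 (0.0643) and PVR (0.0679). IGF2R lay closest to HEATR5B (0.0639), TRANK1 (0.0657) and VPS13D (0.0704). For IGF2 the closest was INS-IGF2 (0.266), and the next genes, GPSM3 (0.501) and FOXP2 (0.507), were farther off than any neighbour of the other members. These are descriptions over libraries that share groups, lanes and depth.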

How the data were processed

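RNA-seq libraries of U2-OS cells (4 groups of 5) were analysed from the deposited whole-number counts of reads per gene, which the authors had not normalized. The labels do not say that the 5 libraries of a group are separate cultures, while the paper calls them biological replicates; if they are not, p values measure technical spread alone. The submitters' processing notes name bcl2fastq, Trimmomatic, STAR 2.4.2a and hg19; counting tool, annotation and strand setting are not given in the sources used here. The gene lengths per kilobase are the lengths deposited with the counts, so that no reference annotation was needed for them. Of 20314 genes, 1679 had no symbol.

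Counts were fitted in R 4.3.3 with edgeR 4.0.16: TMM factors, filterByExpr with a minimum count of 10, 1 quasi-likelihood model (glmQLFit, glmQLFTest) with a term per group for all libraries (16 residual degrees of freedom), and Benjamini-Hochberg adjustment over 14992 genes. SE came from the F statistic. Log2 CPM used a prior count of 2. Exact permutation tests were two-sided on log2 CPM, with 0.00794 the smallest p possible. Depth was 22535659 to 40390961 counts per library.

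Named genes were all members, IGF1, INSR, IRS1, IRS2, PAPPA, IGFALS, NFKBIA, CDKN1A and up to 4 called genes per list and comparison with untreated cells with the largest changes; CTSD, HTRA1, ADAM9, FOXO1, SOCS2, GSK3A, GAB1, AKT1, AKT2, MTOR and marker genes were added where a count or group was described, after their values were seen. The members and lists were chosen with earlier results of these data known. The lists were those of axis partners, IGFBP proteases and inhibitors, receptor signalling, IGFBP-related proteins, IGF2 mRNA regulators and cell type markers. Alternatives were RLE, upper-quartile and no factors, DESeq2 1.42.0, no filter or at least 10 counts in every library, only the groups compared, replicate number or lane as a factor, other calling rules, fits within a lane and each library left out. Leaving out untreated libraries 4 and 5 together and summing IGF2 with INS-IGF2 were added after seeing the data. The tests were tried on simulated data with known changes first. Promoters are from RefSeq (GRCh38.p14) and positions from GENCODE 29; neither is the build of the counts. Figures used matplotlib 3.10.9.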

Additional observations from a re-analysis of the deposited data

Results flagged for a closer look

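Within each group of 5 libraries, the gap of the most extreme library to its nearest neighbour was divided by the range of log2 CPM and set against Dixon's 95% critical value of 0.710. Chance alone passes that value in about 1 of 20 groups, and 24 groups (6 genes in 4 groups) were examined. IGF2 in untreated library 5 gave 0.916, at 125 CPM against 18.6 to 21.8 in the other 4. The same library passed the critical value as the most extreme of its group for 12.2% of all genes tested, against 3.48% or less for any other library. IGF2R gave 0.711 for library 1 at 1.5 h (317 CPM, the lowest of its group) and 0.746 for library 2 at 7 days (439.7 CPM, also the lowest). These 3 libraries held 22535659, 39546228 and 30140152 reads on genes, so that the first was the shallowest of all and the second the deepest of its group.

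The effects of irradiation at 1.5 h and at 7 days share the untreated libraries, and their difference was tested directly as 7 days against 1.5 h. It passed the thresholds for IGFBP5 (log2 fold change -1.32) and for IGFBP6 (0.85), both by the quasi-likelihood test of edgeR.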

How the results depend on the processing

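Of 666 alternative values for the fold changes of the 6 tested genes, 597 kept their direction and their side of the thresholds, 33 lost the call, 16 gained one and 20 changed sign. For called genes of the lists, 1647 of 1774 kept both, 124 lost the call and 3 changed sign, all 3 with lane as a factor (SOCS2 at 7 days 0.022, and in the knockdown CCN3 -0.057 and INS-IGF2 -0.92). The cause of these changes was not tested.

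With lane as a factor the genes called lower at 1.5 h were 2 in place of 0 (also 2 within lane 3). At 7 days 1 was then called higher in place of 2 and 2 lower in place of 1. In the knockdown 0 were called higher in place of 1 and 3 lower in place of 2, since IGF2 was then called lower (-0.81, adjusted p = 0.00471), and 2 in place of 1 were higher at 7 days than at 1.5 h (also 2 within lane 4 and 2 with only the groups compared). With no filter 4 were called higher at 7 days against untreated cells and 3 against 1.5 h. With adjusted p alone 3 were higher at 7 days than at 1.5 h, 3 in place of 2 against untreated cells (IGF1R added, 0.43) and 4 in place of 3 against the knockdown (IGF2R added, 0.38). With a log2 fold change above 1, 0 were higher at 7 days against untreated cells, 0 against 1.5 h and 1 against the knockdown. With only the groups compared 0 were called higher in the knockdown. DESeq2 gave 0 higher in the knockdown and 0 lower at 7 days than in the knockdown, since it gave no p for IGF2. Leaving out 1 library gave 0 to 1 called lower at 1.5 h, 1 to 3 called higher at 7 days and 0 to 1 called higher in the knockdown. Over all genes lane as a factor moved the calls at 1.5 h from 312 higher and 236 lower to 1781 and 2039, and in the knockdown from 777 and 1129 to 1994 and 2094. At 1.5 h the fit of only the groups compared called 94 lower. Without library 2 at 1.5 h it was 157 and without untreated libraries 4 and 5 it was 145, and within lane 3 it was 1668 higher and 2032 lower.

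Signs changed at 1.5 h for IGFBP6 (0.07 with lane as a factor, 0.063 within lane 3), IGFBP7 (0.14 and 0.13) and IGF1R (-0.26 and -0.27, and -0.050 to 0.11 with 1 library left out). IGFBP7 at 7 days was -0.022 without the filter, -0.0005 with only the groups compared and -0.065 to 0.060 with 1 library left out. IGFBP6 in the knockdown was -0.046 to 0.16 with 1 library left out. IGF2 at 7 days was 0.052 with the replicate block, 0.68 without untreated libraries 4 and 5 and -0.48 to 0.72 with 1 library left out, and in the knockdown -0.81 with lane as a factor.

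The replicate numbers did not pair the libraries: deviations from group means correlated between -0.254 and 0.121 for libraries of the same number, and in the knockdown 4 of 10 libraries, the most of any comparison, correlated best with their own number. With the number as a block, calls over all genes at 1.5 h were 310 higher and 186 lower. Among the tested members the block lost the IGF1R call against the knockdown (0.4997, just below 0.5), so that 2 in place of 3 were higher there, and it changed no other call of theirs. Of the called list genes it lost IRS1 in the knockdown (-0.48) and GSK3A at 7 days (-0.46). At this depth IGFBP1 to IGFBP4 had too few counts to be tested.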
